A study of Mus musculus with 12 samples.

Results

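The first assembled sequence beside the centromeric gaps of the mouse autosomes was examined for nucleosome calls in male germ cells. A call belonged to it when it lay on chromosome 1 to 19 and its midpoint fell between 3000001 and 3100000 of the mm10 build, a window of 100 kb per chromosome. Whether each window is assembled throughout was not tested. Over 6 lists, 2410 of 415758 calls did so. The lists came from MNase-seq, in which micrococcal nuclease (MNase) digests linker DNA and leaves the fragments that histones hold. The 12 samples were testis cells of SV129 male mice aged 8 to 12 weeks, with no allele or treatment other than MNase given in the labels. M stands here for the fraction whose titles read Meiotic Spermatid although the protocol names it meiotic, and RS for round spermatids, the haploid cells before elongation. Both were sorted by sedimentation from pools of 11 mice per collection, to a stated purity of at least 85%, and each was digested with 0.5, 1 or 2 U of MNase for 7.5 min, with 2 samples per stage and amount and 2 times as many RS cells as M cells. Each deposited list joins the 2 samples of its group. Each list is therefore 1 observation without replicate error, no difference between lists could be tested, and the 95% intervals given cover counting error only. They are too narrow, because neighbouring calls overlap and share reads.

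Mouse chromosomes carry the centromere at one end. It is built of minor satellite DNA, flanked by long arrays of major satellite that form pericentromeric heterochromatin and gather into chromocentres in the nucleus. The arrays are missing from the assembly, which opens each chromosome with a gap. In spermatids histones are later replaced by transition proteins and then protamines.

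Little of the windows lies in genes, 6.79% of the bases against 49.4% over the rest of the autosomes. Each window is counted here at its full 100 kb, assembled or not. Of the 30 RefSeq genes that overlap the windows, 21 are pseudogenes, 5 are long noncoding RNAs, 2 are protein-coding, 1 is a microRNA and 1 a small nucleolar RNA. The microRNA gene Mir101c, at chr9:3038669-3038743, lies just past the block of calls on chromosome 9 that the results turn on. Its mature sequence and the 3′ arms of the other members of its family are shown because it is the annotated gene nearest to the end of that block. Capitals mark the seed, bases 2 to 8 of each RefSeq record (GRCm38.p6). The 19 bases of miR-101c occur whole in miR-101a-3p from its base 2 on, while miR-101b-3p shares a run of 14 bases with it, and the 3 seeds differ as recorded.
mmu-miR-101c: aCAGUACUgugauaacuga
mmu-miR-101a-3p: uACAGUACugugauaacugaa
mmu-miR-101b-3p: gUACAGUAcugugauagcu

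RefSeq promoter sequence (250 bases before to 50 after a gene start) was at hand for 5 genes of the windows, and each of these promoters shared a run of at least 40 bases with the promoter of another gene. Over the autosomes 7.93% of 31396 promoters did. Of the 5, 2 are shown because they illustrate how repeated this sequence is. The promoter of Gm2888 (chr14:3029668-3029967, plus strand), the gene with the most calls among the 2 protein-coding genes, shared such runs with 32 other genes, each of them on chromosome 14. Capitals mark its 294 shared bases of 300. The promoter of the long noncoding RNA gene Gm35912 (chr16:3002562-3002861, plus strand) was identical over its 300 bases to that of Gm38527 in the window of chromosome 19 (chr19:3075776-3076075, minus strand), and is printed once. No call of any list overlapped any of the 5 promoters. How often calls overlap promoters over the autosomes was not counted, so no background stands beside this. The bases under the calls were not analysed here.
Gm2888 promoter: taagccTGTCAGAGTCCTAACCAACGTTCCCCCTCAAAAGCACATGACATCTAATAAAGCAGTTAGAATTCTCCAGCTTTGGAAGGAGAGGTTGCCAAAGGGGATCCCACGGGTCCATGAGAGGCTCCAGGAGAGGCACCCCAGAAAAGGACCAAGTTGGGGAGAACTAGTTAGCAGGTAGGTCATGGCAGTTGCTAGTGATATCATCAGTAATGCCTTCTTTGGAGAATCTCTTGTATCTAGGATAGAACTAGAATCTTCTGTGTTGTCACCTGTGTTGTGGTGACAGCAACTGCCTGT
Gm35912 and Gm38527 promoter: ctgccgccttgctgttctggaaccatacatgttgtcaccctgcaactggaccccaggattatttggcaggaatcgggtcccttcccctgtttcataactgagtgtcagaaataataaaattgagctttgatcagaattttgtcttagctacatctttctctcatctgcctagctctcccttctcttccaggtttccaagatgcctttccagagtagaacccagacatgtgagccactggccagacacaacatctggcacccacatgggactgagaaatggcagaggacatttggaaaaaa

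Calls were counted first by chromosome. The windows held 310, 445 and 427 calls for M and 511, 388 and 329 for RS, from 0.5 to 2 U. These were 0.787% (0.702 to 0.880), 0.782% (0.711 to 0.857) and 0.684% (0.621 to 0.752) of the autosomal calls in M, and 0.291% (0.266 to 0.317), 0.989% (0.893 to 1.09) and 1.32% (1.18 to 1.47) in RS (exact binomial intervals). Per bp, the windows held 10.03, 9.96 and 8.71 times the calls of the rest of the autosomes for M and 3.69, 12.6 and 16.9 times for RS. These densities count the full 100 kb of every window, including any stretch that is not assembled. The geometric mean over the lists was 9.39. It was 3.15 without chromosome 9, and 3.91 when overlapping calls were merged.

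**Figure D1:**
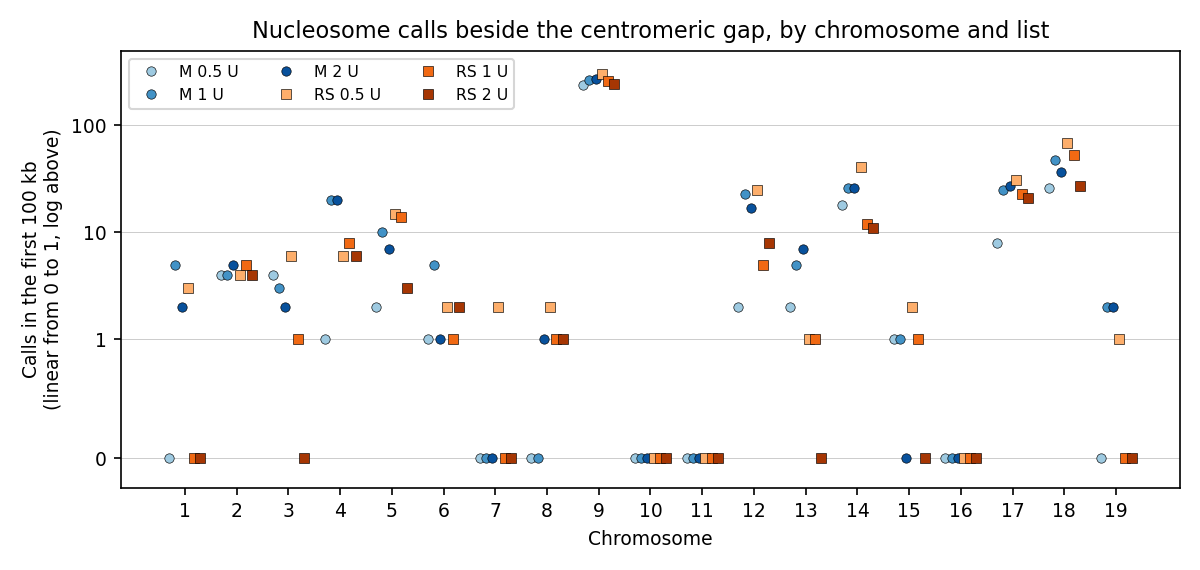
Calls in the first 100 kb of each autosome (y axis, linear from 0 to 1 and logarithmic above) against chromosome number, with 1 point per list, circles for M and squares for RS. Chromosome 9 stands at 241 to 302 calls in each list, followed by chromosome 18 with 26 to 68, while chromosomes 10, 11 and 16 have none.

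Chromosome 9 alone held 1593 of the 2410 calls, or 66.1%. Its window had 241, 268 and 273 calls for M and 302, 263 and 246 for RS, from 0.5 to 2 U. Among 24047 autosomal windows of 100 kb it ranked 4, 4 and 6 for M and 13, 5 and 4 for RS by number of calls. Chromosome 18 followed with 26, 48 and 37 calls for M and 68, 53 and 27 for RS. Chromosomes 17 and 14 held 135 and 134 calls over the 6 lists, chromosome 12 held 80, chromosome 4 held 61 and chromosome 5 held 51. The other chromosomes had at most 26 each, among them chromosome 13 with 14 for M and 2 for RS. Chromosomes 10, 11 and 16 had 0 calls in each list, although RefSeq places Gm35912 and a vomeronasal pseudogene in the window of chromosome 16. On 9 chromosomes each of the 6 lists had a call. Of the 24047 windows, 44.8%, 29.9% and 25.7% had no call for M and 3.24%, 40.3% and 57.4% for RS. The share of all windows with a call in each list was not counted. Windows with more than 20 calls numbered 2, 5 and 4 of 19 for M and 5, 3 and 3 of 19 for RS. Of the other 24028 windows of 100 kb, 0.337%, 0.449% and 0.491% had more than 20 calls for M and 1.2%, 0.362% and 0.279% for RS.

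Some windows began with long stretches without calls, and dense places lay just past others. The call nearest to the far edge on the inside was on chromosome 18 with its midpoint at 3099401, and the nearest outside was on chromosome 3 at 3100061. On chromosome 11 the first call stood at 3100526, and the next 100 kb held 4363 calls over the 6 lists, including those in Pisd-ps1. On chromosomes 10 and 16 the first calls stood at 3105041 and 3113596. On chromosomes 2, 4, 6, 15 and 19 no list had a call before 3050231, so parts of those windows held none. On chromosome 19 the gene Gm38527 (chr19:3064929-3075825) lies before the first call, at 3093176, so that stretch is assembled. Whether the other parts are assembled sequence was not tested.

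On chromosome 9 the calls formed 1 block at the very start of the assembled sequence. In each list the first call had its midpoint at 3000131, and the last of the block lay between 3037911 and 3038151. The first 40 kb held 241, 267 and 271 calls for M and 302, 263 and 246 for RS, and the other 60 kb of the window held 0, 1, 2, 0, 0 and 0. The next call after the block was 63162, 19430 and 51520 bp away for M and 63425, 114200 and 269103 bp away for RS. The block thus ended at nearly the same place in the 6 lists, 458 to 698 bp before the mature miR-101c shown above, and no call overlapped Mir101c. MiR-101 is a conserved microRNA known for repressing the Polycomb enzyme gene Ezh2. Whether miR-101c, whose seed as recorded differs, does so was not tested.

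Within the block the calls lay in overlapping groups. Successive midpoints were less than 140 bp apart, the length of a call, in 76.7% to 82.1% of steps. Most neighbouring calls thus overlapped in each list. Merged, they made 57, 53 and 55 intervals for M and 55, 49 and 53 for RS. These covered 14569, 15495 and 15981 bp for M and 16802, 15439 and 14819 bp for RS. The covered length therefore ran from 38.2% of the span of the block in M at 0.5 U to 44.0% in RS at 0.5 U. Each of the 4 bins of 10 kb was occupied in each list, with 86 to 107 calls in the first, 38 to 58 in the second, 58 to 78 in the third and 52 to 65 in the last.

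The authors' p-values matched upper tails of Poisson distributions with a minimum of 6 reads per call, so each p-value implies a read count. By this count the windows held tall calls. Calls of 10 or more implied reads made up 57.4%, 39.1% and 47.8% of the window calls for M and 51.7%, 48.7% and 53.8% for RS. Over the rest of the autosomes they made up 4.66%, 4.01% and 3.93% for M and 2.33%, 4.77% and 6.21% for RS. Of all autosomal calls of 10 or more reads, 8.91%, 7.13% and 7.73% for M and 6.09%, 9.25% and 10.4% for RS lay in these windows. The share was thus higher in the windows than over the rest in each list. On chromosome 9 it was 66.0%, 51.5% and 63.0% for M and 67.9%, 58.2% and 58.1% for RS. In the other 18 windows it was 27.5%, 20.3% and 20.8% for M and 28.2%, 28.8% and 41.0% for RS. Without chromosome 18 as well it was 6.98%, 13.95% and 10.3% for M and 22.7%, 19.4% and 30.4% for RS. These last shares rest on few calls, from 3 of 43 in M at 0.5 U (1.46% to 19.1%) to 17 of 56 in RS at 2 U (18.8% to 44.1%). The interval of M at 0.5 U included the 4.66% of the rest, and those of the other lists lay above their values for the rest. Outside chromosome 9, chromosome 18 carried 16 of 19, 18 of 36 and 20 of 32 of these tall calls for M and 27 of 59, 22 of 36 and 17 of 34 for RS. Dense bins elsewhere, bins of 10 kb in which some list had over 20 calls, had 26.2% to 27.8%. The median call on chromosome 9 had 13, 10 and 13 reads for M and 13, 12 and 11 for RS, against a median of 6, the minimum, over the rest of the autosomes in each list. Calls with p below 1e-300 numbered 16, 13 and 16 for M and 17, 16 and 13 for RS on chromosome 9, of 129, 135 and 151 and of 154, 143 and 134 on the autosomes. None lay in another window.

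The leading positions had tall calls in both stages. Midpoints of the 6 lists within 73 bp of each other were chained into merged positions. These were ranked by the number of lists and then by summed implied reads. Positions called in the 6 lists thus came first, so the leading ones had calls in both stages by this rule. The leading position, at chr9:3000062-3000801, had a call below 1e-300 in each list. So did those at chr9:3009317-3009823, chr9:3007127-3007341, chr9:3036097-3036311 and chr9:3012772-3012981. At chr9:3018362-3018581 the tallest calls had 140 and 135 reads at 0.5 and 1 U in M, and in the other 4 lists they were below 1e-300, with lower bounds of 148 for M and 156, 146 and 142 for RS. At chr9:3032452-3032671 they had 120, 132 and 132 reads for M and at least 156, 139 and 117 for RS, and at chr9:3035892-3036111 at least 144, 116 and 132 for M and 152, 128 and 97 for RS. Positions 9 and 10 of this ranking lay on chromosome 18, at chr18:3005687-3006121 with 48, 66 and 89 reads for M and 93, 73 and 56 for RS, and at chr18:3005272-3005571 with 44, 60 and 89 for M and 78, 67 and 55 for RS. In both positions M was highest at 2 U and RS at 0.5 U. These reads are not scaled for depth. The Poisson mean fitted to the p-values was 0.434, 0.484 and 0.507 reads for M and 0.696, 0.472 and 0.409 for RS. It need not equal coverage, since the caller is not given.

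Positions on chromosome 9 were mostly shared between lists. Of its 101 merged positions, 51 (50.5%) were called in the 6 lists and 16 (15.8%) in a single list. Of the 206 positions in the other windows, 8 (3.88%) were in the 6 lists and 148 (71.8%) in a single list. The 59 positions found in the 6 lists were 19.2% of the 307 window positions, against a background of 0.218% of the 240879 positions over the rest of the autosomes. In dense bins outside the windows 9.05% of 4532 positions were in the 6 lists. Midpoints of the 6 lists were chained together, so a chain can grow long and join more lists where calls are dense. The leading position spanned 740 bp and held 113 calls. When chained within 20 bp, 72 of 502 window positions (14.3%) were in the 6 lists, against 607 of 302807 over the rest of the autosomes. The part of call density in these shares was not tested. Among the 51 shared positions of chromosome 9, the median of the tallest call was 17, 14 and 21 reads for M and 22, 16 and 15 for RS. Divided by the fitted Poisson mean of the list, these medians were 39.2, 28.9 and 41.4 for M and 31.6, 33.9 and 36.6 for RS. The values of the stages thus overlapped. The rank correlation of the tallest reads across the 51 positions was 0.740 to 0.827 for the 6 pairs of lists within a stage and 0.727 to 0.860 for the 9 pairs between stages. It is given as a description, since the positions share their libraries and their sequence. They were also chosen for having a call in each list.

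**Figure D2:**
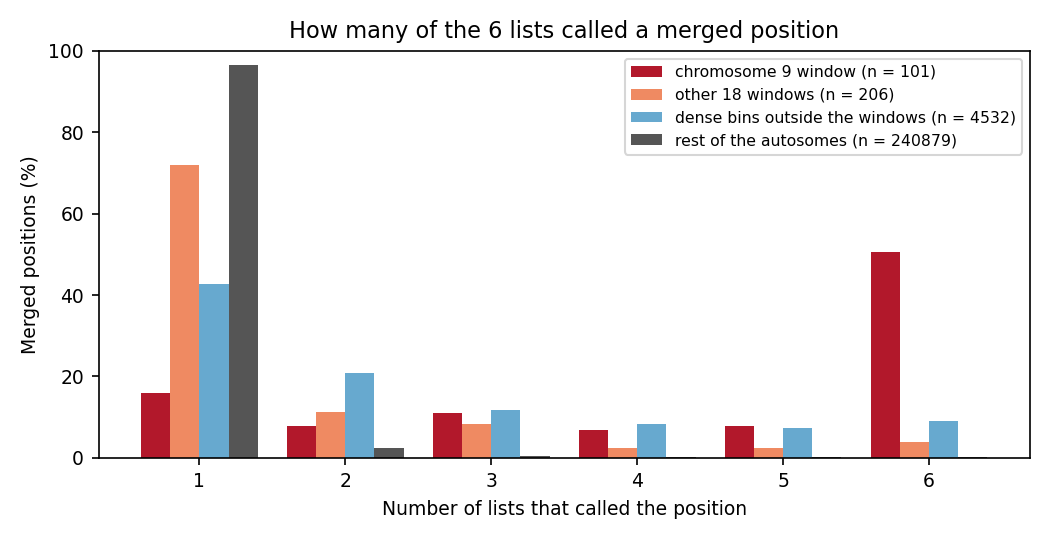
Percent of merged positions (y axis) by the number of lists, from 1 to 6, that called them. The chromosome 9 window peaks at 6 lists with 50.5%, while 96.4% of positions over the rest of the autosomes were called in 1 list.

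Positions called in 1 stage alone made up 21 of 101 on chromosome 9 (20.8%) and 157 of 206 in the other windows (76.2%), against 97.4% over the rest of the autosomes. Most of these outside chromosome 9 rested on a single list. On chromosome 9, 10 positions were called in M alone and 11 in RS alone, and in the other windows 73 and 84. Over the rest of the autosomes 37.5% of positions were called in M alone and 59.9% in RS alone. Of the 307 window positions, 1 was in each RS list and in no M list, at chr9:3018997-3019201 with 10, 7 and 8 implied reads, and 0 were in each M list and in no RS list. The background was 0.0291% and 0.017% of positions. In exactly 2 lists of a stage and in none of the other were 7 positions of M and 6 of RS, each with at most 12 reads, where the background was 0.399% for M and 0.503% for RS. Positions in more than 1 list were more frequent in the windows in general, since 53.4% of window positions were in a single list, against 96.4% over the rest of the autosomes.

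The number of calls on chromosome 9 changed little between lists that differed greatly in size. Its highest count was 1.25 times its lowest. The same ratio was 3.03 for the other 18 windows, 2.62 for dense bins elsewhere and 8.08 for the remaining autosomal calls. At 0.5 U, where RS had 4.84 times the remaining autosomal calls of M, it had 1.25 times the calls on chromosome 9 (1.06 to 1.48) and 3.03 times those of the other windows (2.31 to 3.98). At 1 U the RS to M ratios were 0.981 (0.828 to 1.16) on chromosome 9, 0.706 (0.562 to 0.888) in the other windows and 0.667 in the remaining calls. At 2 U they were 0.901 (0.758 to 1.07), 0.539 (0.413 to 0.704) and 0.369. At 1 U and 2 U the chromosome 9 interval included 1. Calls at the minimum of 6 reads made up 6.62% to 15.8% of the chromosome 9 calls by list. They made up 30.1% to 41.2% in the other windows, 28.3% to 32.4% in dense bins elsewhere and 68.1% to 71.7% over the rest of the autosomes. The part of these shares, and of the overlap of its calls, in the steady count of chromosome 9 was not tested.

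**Figure D3:**
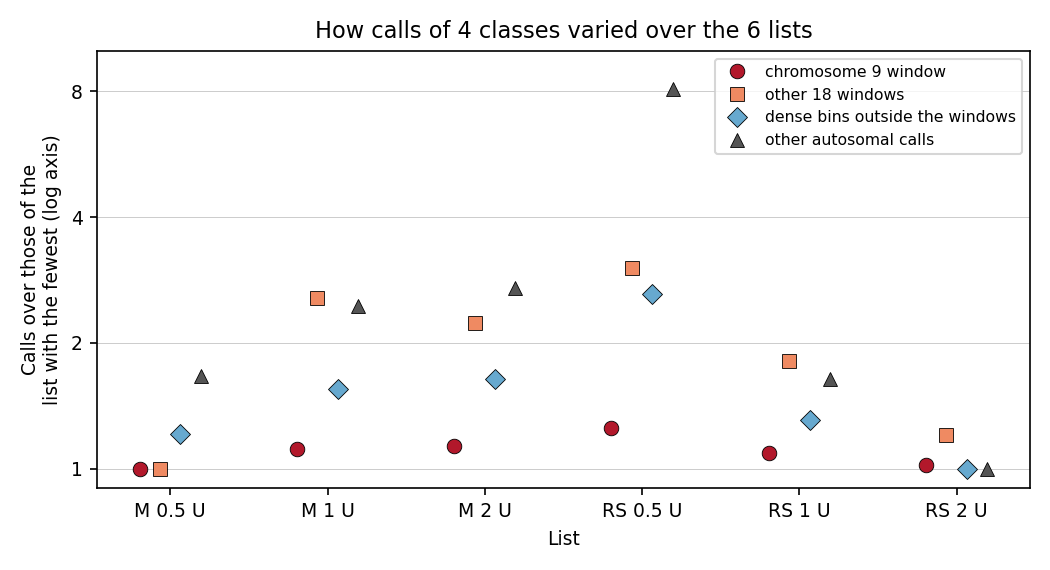
Calls of 4 classes in each list, divided by the count of the list with the fewest (y axis, logarithmic). The chromosome 9 window stays between 1 and 1.25, while other autosomal calls reach 8.08 in RS at 0.5 U.

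Larger lists had lower shares of window calls in RS, and no direction between the stages held across the amounts. The log2 ratio of RS to M in the share of autosomal calls was -1.44 (-1.64 to -1.23) at 0.5 U, 0.34 (0.14 to 0.53) at 1 U and 0.95 (0.74 to 1.16) at 2 U. The mean was -0.05 (-0.17 to 0.07). Without chromosome 9 the values were -0.55 (-0.95 to -0.16), 0.046 (-0.28 to 0.38) and 0.44 (0.06 to 0.83). With overlapping calls merged the value at 1 U was 0.26 (-0.13 to 0.65), so at 1 U the interval included 0 under both alternatives. At equal MNase per cell it was 0.33 (0.11 to 0.54) when RS at 1 U was set against M at 0.5 U. Setting RS at 2 U against M at 1 U gave 0.76 (0.55 to 0.96). From 0.5 to 2 U the share changed by a log2 ratio of -0.20 (-0.41 to 0.01) for M and 2.18 (1.98 to 2.38) for RS. Without chromosome 9 the M value was 0.50 (0.09 to 0.91), with the opposite sign, and the RS value was 1.499. List size itself moved with these shares, from 42178 to 65614 calls for M and from 179133 to 27101 for RS, and its part in them was not tested.

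Outside chromosome 9, dense bins were found in 4 windows. In all, 8 of the 190 window bins of 10 kb were dense, or 4.21%, against 0.0941% of 240181 bins outside the windows. The first 10 kb of chromosome 18 held 24, 39 and 32 calls for M and 42, 41 and 25 for RS. It held 4 positions called in the 6 lists, the 2 ranked above and those at chr18:3005517-3005731, with 12, 22 and 37 reads for M and 32, 26 and 35 for RS, and chr18:3006297-3006511, with 16, 26 and 30 for M and 23, 28 and 17 for RS.

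The bin at chr17:3080001-3090000 lay at the end of the transcribed pseudogene Pisd-ps2 (chr17:3064318-3084183), a copy of the gene for phosphatidylserine decarboxylase, a mitochondrial enzyme of phospholipid synthesis. It held 8, 23 and 23 calls for M and 25, 23 and 21 for RS. M at 0.5 U was the low list, with a Poisson interval of 3.45 to 15.8, and the other lists lay close together. The position with the most summed reads was chr17:3081467-3082181, where the tallest had 9, 15 and 22 reads for M and 20, 17 and 16 for RS. Pisd-ps1, just outside the window of chromosome 11, had 18, 36 and 39 calls for M and 41, 32 and 43 for RS over its body, also with M at 0.5 U lowest.

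The bin at chr14:3030001-3040000 lay mostly in the predicted protein-coding gene Gm2888 (chr14:3029918-3037667), whose promoter is printed above. It held 13, 22 and 24 calls for M and 33, 10 and 9 for RS. The body of Gm2888 had 9, 20 and 21 calls for M and 27, 9 and 9 for RS. M and RS thus overlapped, with the RS lists at 1 and 2 U and M at 0.5 U lowest. Of the 32 genes whose promoters share runs with that of Gm2888, 13 had a call in their body in any list and 19 had none, while 54.7% of 21571 autosomal genes in the same range of lengths had one. Gm5458 had 143 calls over the 6 lists, more than the 95 of Gm2888. Per kb of gene, Gm3115 (18.8 calls), Gm5458 (16.9) and Gm6337 (15.7) stood above Gm2888 (12.3).

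On chromosome 12 the bin at chr12:3010001-3020000 held 1, 17 and 17 calls for M and 21, 4 and 7 for RS. It passed 20 calls in RS at 0.5 U alone, the largest list. The Poisson intervals at 0.5 U, 0.0253 to 5.57 for M and 13.0 to 32.1 for RS, lay apart. At 1 U those of M (9.90 to 27.2) and RS (1.09 to 10.2) overlapped slightly, and at 2 U (9.90 to 27.2 and 2.81 to 14.4) they overlapped. On chromosome 4 the bin at chr4:3080001-3090000, which did not pass 20 calls, held 1, 13 and 13 calls for M and 1, 4 and 3 for RS. On chromosome 12 the stage with more calls changed with the amount, and on chromosome 4 both stages had 1 call at 0.5 U. The tallest call had 9 reads in the window of chromosome 12 and 13 in that of chromosome 4, against a minimum of 6. On chromosome 2 a single place carried taller calls. At chr2:3050162-3050391, among the first calls of that chromosome, the tallest had 15, 18 and 21 reads for M and 19, 20 and 18 for RS, and 22 calls of the 26 on chromosome 2 fell there.

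**Figure D4:**
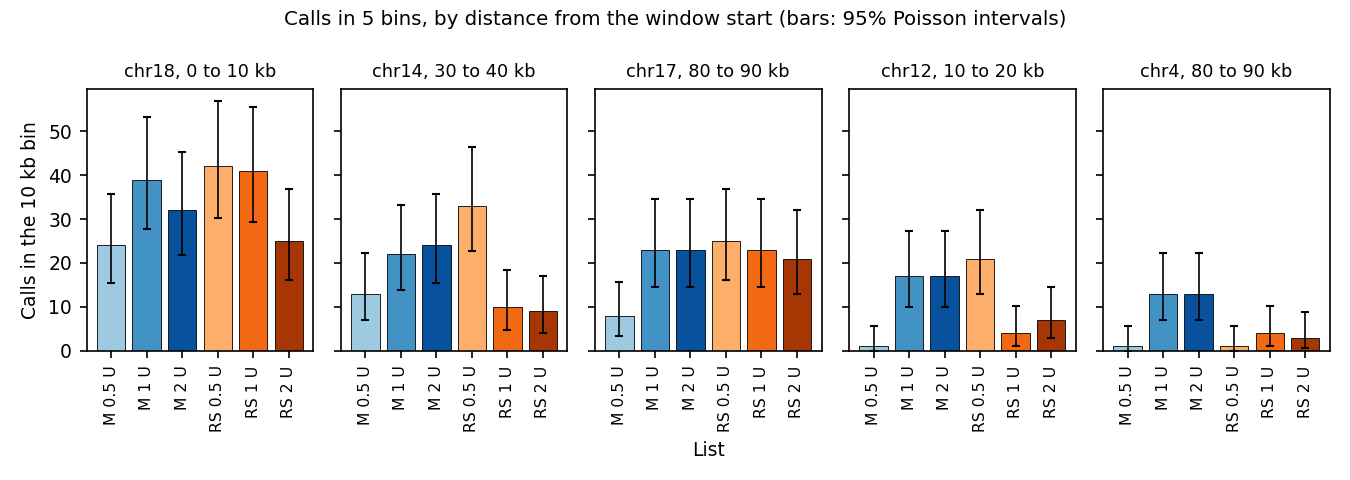
Calls per 10 kb bin (y axis) in each list for 5 bins, named by chromosome and distance from the window start in kb, with 95% Poisson intervals as error bars. The bin of chromosome 17 holds 21 to 25 calls in 5 lists and 8 in M at 0.5 U, and that of chromosome 18 holds 24 to 42.

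Genes took up 6.79% of the full length of the windows, assembled or not, against 49.4% of the rest of the autosomes. Of the 2410 window calls, 233 (9.67%) had their midpoint in a RefSeq gene. On chromosome 9, where Mir101c is the 1 RefSeq gene, the number was 0. In the other windows 28.5% of calls fell in genes, which take up 7.16% of the full length of those windows. By list, without chromosome 9, the share was 25.4% to 36.1%, against 40.6% to 50.4% over the rest of the autosomes. Of the 30 genes, 6 had a window call in any list, while 44.2% of 47012 other autosomal genes had a call. The window genes are shorter, with a median of 1514 bp against 6282.5 bp, and the 24 without a call had a median of 920 bp. Pisd-ps2 with 131 calls and Gm2888 with 95 held nearly all of these. Gm3053, Gm17177 and Gm2897 had 2 calls each and Gm41084 had 1. The 5 vomeronasal receptor pseudogenes, relics of pheromone receptor genes of 699 to 921 bp, had 0 calls, and of 1868 autosomal genes in that range of lengths 10.2% had one, so 0 of 5 is near the background. Distances between calls on chromosome 9 overlapped those elsewhere. Among distances of 120 to 250 bp the mode was 195, 185 and 175 bp on chromosome 9 for M and 175, 185 and 195 bp for RS, from 105 to 161 pairs in 3 adjacent 10 bp bins. Over the rest of the autosomes it was 185, 165 and 175 bp for M and 195, 175 and 165 bp for RS. At 0.5 U these 3 bins held 105 of 361 pairs for M and 161 of 552 for RS on chromosome 9. Over the rest they held 1903 of 7381 and 5192 of 21317. Most pairs thus lay outside the bins of the mode, and no repeat length is read from it.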

How the data were processed

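MNase-seq of 12 samples in 6 groups of 2 was analysed as 6 lists of nucleosome calls. Per the design text of the series, the authors made each list from both samples of a group. STAR 2.5.2a and GRCm38/mm10 are listed, without a role, per the submitters' processing notes. Which caller and cut-off were used is not given in the sources used here. Each call spans 140 bp and carries a p-value that the authors deposited, with no read count, so the depth of sequencing is unknown. Each p-value was assigned the nearest upper tail of a Poisson distribution whose minimum count and mean were searched per list. The largest difference of natural logarithms was 1.37e-10, and p-values below 1e-300 were assigned the next count, 142 to 156 reads, as a lower bound. Read counts are thus derived, and 65.4% to 69.5% of calls stood at the minimum of 6 reads.

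Midpoints were start plus 70. Density was set against calls per bp from the end of the windows to the last call of each chromosome. Positions were chained within 73 bp. A bin of 10 kb counted as dense when at least 1 list had over 20 calls in it. Intervals are 95% and cover counting error only: exact Poisson for counts, exact binomial (Clopper-Pearson) for shares and normal for log2 ratios. No test was made, as the lists have no replicates. Genes, promoters and microRNAs are from RefSeq GRCm38.p6, which describes another strain than SV129. Regions named were each chromosome, the dense bins, the 10 leading positions, each gene with a call and the calls at the window edges. The chromosome 4 bin, positions past rank 10, Pisd-ps1, Gm5458, Gm3115 and Gm6337 were named after their values were seen. Shares of autosomal genes with a call, gene coverage and single-stage shares over the rest of the autosomes were added after seeing the data. The members, lists and rules were chosen with earlier results of these data known. Alternatives were merged calls, calls above the minimum, windows of 50 and 200 kb, other tolerances, and leaving out chromosome 9, dense bins or an amount. The steps were tested on simulated data, with Python 3.11.15, numpy 2.4.6, pandas 2.3.3, scipy 1.17.1 and matplotlib 3.10.9.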

Additional observations from a re-analysis of the deposited data

Results flagged for a closer look

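The number of window calls moved in opposite ways with MNase in the stages. Calls at 2 U over those at 0.5 U were 1.13 in M and 0.815 in RS on chromosome 9, and 2.23 in M and 0.397 in RS in the other 18 windows. This difference was not tested, since each value rests on 1 list, and the sizes of the lists moved the same way.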

How the results depend on the processing

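No paired analysis was possible because each list pools both replicates of a group, and leaving out a replicate was not run for the same reason. The geometric mean of window density over the rest was 3.91 with overlapping calls merged, 25.3 with calls above the minimum, 16.6 for windows of 50 kb, 14.5 for windows of 200 kb, which take in the dense start of chromosome 11, and 3.15 without chromosome 9. In every list it stayed above 1 under these 5 alternatives. Without chromosome 9 the stage log2 ratios were -0.55, 0.046 and 0.44 from 0.5 to 2 U, and the MNase log2 ratios 0.50 in M and 1.499 in RS. The mean stage ratio was 0.10 with calls above the minimum, 0.64 without 0.5 U, -0.24 without 1 U, -0.55 without 2 U and 0.54 at equal MNase per cell, so its sign depended on the amounts. Positions in the 6 lists numbered 34 when chained within 140 bp and 8 without chromosome 9, against 59. The mean percent of calls with 10 or more reads, 49.7, was 62.3 for calls above the minimum, 52.4 at 50 kb, 55.7 at 200 kb and 27.8 without chromosome 9. These last 4 alternatives were chosen after seeing the data. The other 33 comparisons kept within their counting intervals or within 1.5 times the count. Among them the interval of the MNase log2 ratio in M lay below 0 in some settings. These were 50 kb (-0.36, -0.58 to -0.14), 200 kb (-0.18, -0.30 to -0.06) and outside dense bins (-0.23, -0.44 to -0.02). It included 0 in the main setting, with merged calls and with calls above the minimum. The 30 density values of single lists under the first 5 alternatives moved too. Where not stated, the cause was not tested. Windows with few calls rest on calls at the minimum of 6 reads.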
